A study of Mus musculus with 16 samples.

Results

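Axon guidance ligands and receptors were followed in the retina of mice from a spaceflight study. The members were all rows of the table of all genes whose symbol starts with Sema, Plxn, Epha, Ephb, Efna, Efnb, Slit (without Slitrk), Robo or Unc5, together with Ntn1, Ntn3, Ntn4, Dcc, Neo1, Nrp1 and Nrp2. The rule took 71 of 25905 genes. These were 31 genes of the semaphorin family (20 ligands and 11 receptors), 22 of the ephrin family (8 ligands and 14 receptors), 7 of the Slit family (3 ligands and 4 receptors) and 11 of the netrin family (3 ligands and 8 receptors). The prefix Unc5 also caught Unc50 and Unc5cl, which are not netrin receptors by their names or known roles, so the sums and shares of the netrin family are given with and without these 2 genes.

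RNA was sequenced from right-eye retinas of wild-type male C57BL/6 mice. The labels give an age of 10 weeks, which in the study is the age of the flown mice at flight. Eyes were collected after the flight and the return to Earth, so the flown mice were older by then. Of the 16 libraries, 8 came from mice flown aboard the International Space Station (Spaceflight) and 8 from mice kept on the ground in matching habitats (Ground control). No treatment or genetic change beyond flight is given for either group. The level used here is the mean normalized count, the authors' mean over all 16 libraries of a gene's read count after scaling for sequencing depth. The columns of the deposited count tables carry laboratory codes that the labels do not pair with a mouse, so they were not used here. Every level below therefore pools flown and ground mice, has no error between mice, and enters no test. Spaceflight and Ground control were not compared. Differences between levels are given as sizes only, and depth per library is not known from the values used. Because whole retina was sequenced, fewer cells of a type and less RNA per cell cannot be told apart in any level.

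Growing axons steer by cues that attract or repel the tip of the axon. Semaphorins act through plexins, often with the neuropilins Nrp1 and Nrp2 as co-receptors. Ephrins are bound to the membrane and act on Eph receptor tyrosine kinases by cell contact, Slits are secreted and act on Robo receptors, and netrins act through Dcc, Neo1 and the Unc5 receptors. In the eye these families are best known for guiding ganglion cell axons to the optic nerve and across or away from the chiasm, for the map that ephrins and Eph receptors set up in the brain's visual centres, and for sorting retinal neurites into layers.

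Most axon guidance genes reached a measurable level in the adult retina. At or above a mean normalized count of 10 were 54 of the 71 members (76.1%), against 12374 of all 25905 genes (47.8%). At or above 100 were 41 members (57.7%), against 30.3% of all genes. The median mean normalized count was 123 over the members and 6.98 over all genes. The members made up 0.265% of the summed mean normalized count of the table. The 5 members at or above 1000 were the plexin Plxna2 (1681), the Slit receptor Robo2 (1255), its ligand Slit2 (1202) and the membrane semaphorins Sema5a (1097) and Sema6a (1039). Listed at 0 were 5 members: the neuropilin Nrp2, the semaphorin Sema6d, the Eph receptors Ephb4 and Ephb6, and Unc5cl.

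The low values followed how many transcripts of a gene were counted. The count table has 1 row for each of 31616 RefSeq transcripts of the 25905 symbols. Of the 57 members with 1 counted transcript, 52 (91.2%) reached a mean normalized count of 10. The other 5 were the Robo family receptor Robo3 (9.32), the ephrin Efna4 (3.37), the Eph receptor Epha1 (2.24), the plexin Plxnb3 (0.643) and Unc5cl (0). Of the 14 members with several counted transcripts, 2 (14.3%) reached it, Epha7 at 302 and Sema4f at 41.3. Across all genes the shares were 51.7% of 22086 genes with 1 counted transcript and 24.6% of 3794 genes with several. The gap thus had the same direction in the whole table and was wider among the members.

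**Figure D1:**
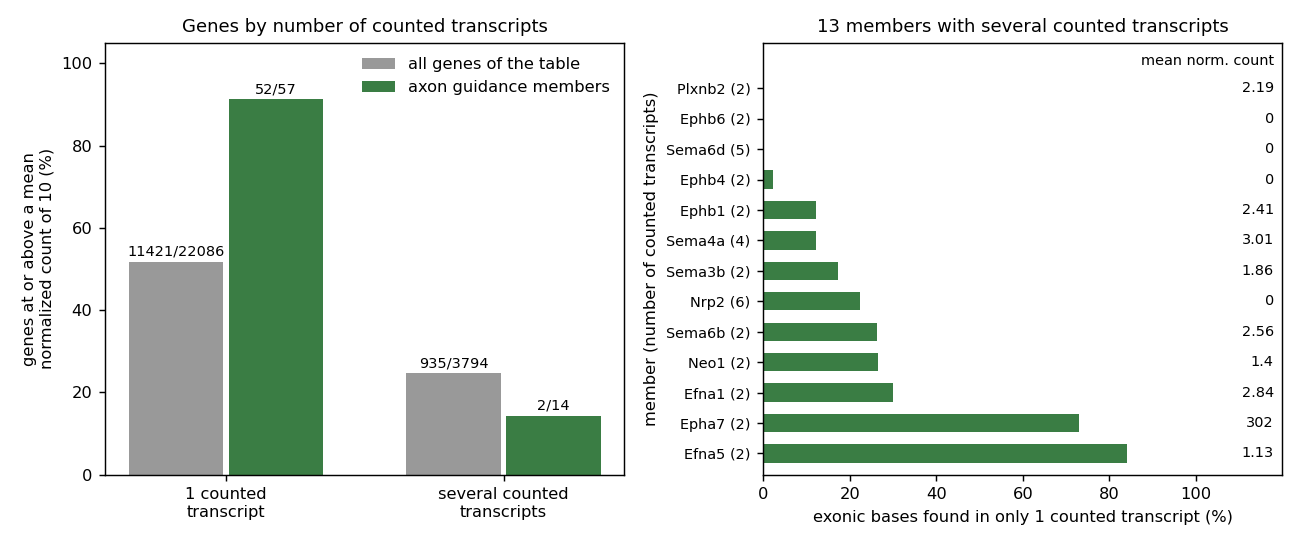
Left, share of genes at or above a mean normalized count of 10, by number of counted transcripts, for all genes (grey) and the members (green), with counts above the bars. Right, share of exonic bases that only 1 counted transcript holds in 13 members, with the number of counted transcripts in brackets and the mean normalized count at the right edge. Of the 13 members only Epha7 had a mean normalized count above 10, and Efna5 had the highest share of own bases but a mean normalized count of 1.13.

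The transcripts of these genes mostly cover the same exons. For 13 of the 14 members every counted transcript was found in the GENCODE M21 annotation (GRCm38). Sema4f, with 1 of its 2 transcripts found, was left out of this measure. The share of exonic bases that only 1 counted transcript holds was 0% in Ephb6 and Plxnb2, whose accessions each point to the same annotated transcript, 0.0153% in Sema6d (1 base of 6541), and 2.24% in Ephb4 (98 of 4367). It was 12.1% in Ephb1, 12.2% in Sema4a, 17.4% in Sema3b, 22.5% in Nrp2, 26.3% in Sema6b, 26.6% in Neo1 and 29.9% in Efna1. These 11 members had mean normalized counts from 0 to 3.01. The largest shares were 72.9% in Epha7, with a mean normalized count of 302, and 84.1% in Efna5, with 1.13. Efna5 is thus an exception with many bases of its own and a low level. Of the 35 transcripts of the 13 members, 16 have no base of their own, and these include the transcripts of Ephb6 and Plxnb2.

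Some of these transcripts differ by alternative exons. The stretches below are coding bases that only 1 of the 2 counted transcripts of a gene holds. They are shown as coding examples of bases that tell the transcripts of a gene apart. They are a part of such bases, being 2.39% of the 3389 bases found in only 1 transcript in Efna5, 21.7% of 566 in Ephb1, 27.6% of 98 in Ephb4 and 4.12% of 1965 in Neo1. Capitals mark those bases, and the 12 lower-case bases on each side belong to both transcripts. Sequences and positions are from GENCODE M21 on GRCm38, read 5′ to 3′ on the gene's strand.
Efna5, chr17:62613316-62613396, minus strand: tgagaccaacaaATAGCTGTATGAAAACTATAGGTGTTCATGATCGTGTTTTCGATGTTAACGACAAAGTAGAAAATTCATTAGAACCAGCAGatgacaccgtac
Ephb1, chr9:101984082-101984204, minus strand: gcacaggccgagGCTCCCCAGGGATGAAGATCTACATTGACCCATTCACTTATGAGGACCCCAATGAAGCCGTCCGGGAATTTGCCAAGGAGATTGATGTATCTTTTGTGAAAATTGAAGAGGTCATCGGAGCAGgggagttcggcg
Ephb4, chr5:137362363-137362389, plus strand: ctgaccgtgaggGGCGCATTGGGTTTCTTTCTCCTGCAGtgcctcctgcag
Neo1, chr9:58902083-58902115, minus strand: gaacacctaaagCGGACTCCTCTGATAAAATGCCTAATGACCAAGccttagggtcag
Neo1, chr9:58907047-58907094, minus strand: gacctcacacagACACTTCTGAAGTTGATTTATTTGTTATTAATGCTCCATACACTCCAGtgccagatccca
Each stretch keeps the reading frame. It adds 27 codons to Efna5, a membrane-anchored ephrin of the retinal map, 41 to the Eph receptor Ephb1, 9 to Ephb4, and 11 and 16 to Neo1, a receptor for netrins and repulsive guidance molecules.

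A like pattern was seen across the whole table. Among 2986 genes whose several counted transcripts are all RefSeq mRNAs, 2811 (94.1%) could be matched in full. Genes whose accessions all point to the same annotated transcript, such as Ephb6 and Plxnb2, have 0% by construction and were kept. The share of the matched genes at or above a mean normalized count of 10 was 9.48% of 348 genes with under 1% of bases in only 1 transcript, and 5.48% of 383 genes with 1 to 5%. It was 21.8% at 10 to 20%, 46.3% at 40 to 60%, and 79.1% of 115 genes at 80 to 100%. By default HTSeq, the counting program, does not assign a read that overlaps several features. The counting mode and the way transcript rows were combined into genes are not given in the sources used here, and their part in the low levels was not tested. A low level of a gene with several counted transcripts is therefore not read as absence. Overlap with other genes was rare among the counted transcripts matched to GENCODE M21. Of the 71 members, 3 share exonic bases with such a transcript of another gene, and overlap with unmatched transcripts was not examined. The highest share was 2.32%, in Epha1.

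**Figure D2:**
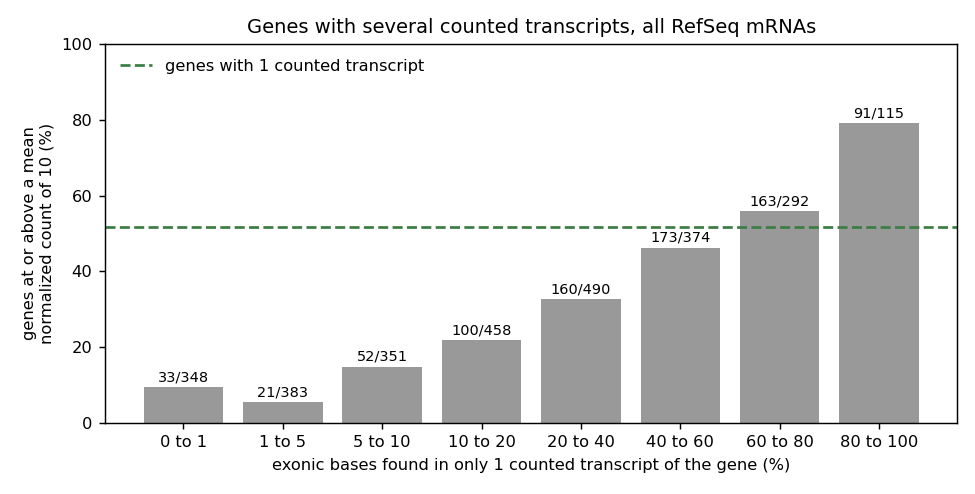
Share of genes at or above a mean normalized count of 10 (vertical axis, %) by the share of exonic bases that only 1 counted transcript holds (horizontal axis, %), for 2811 genes with several counted RefSeq mRNAs. The share ran from 9.48% in the lowest bin, with 5.48% in the next, to 79.1% in the highest. The lowest bin also holds genes whose accessions point to the same annotated transcript.

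Levels of different genes are compared below as the mean normalized count per kilobase, that is, divided by the length of the longest GENCODE M21 transcript in kilobases. The median over the 71 members was 22.5 per kilobase, and 36.5 over the 57 with 1 counted transcript. The length used changes ratios between genes. Each ratio below is therefore given per kilobase of the longest transcript and followed in brackets by its range over 4 scales, which are longest, median and coding length and no division by length.

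**Figure D3:**
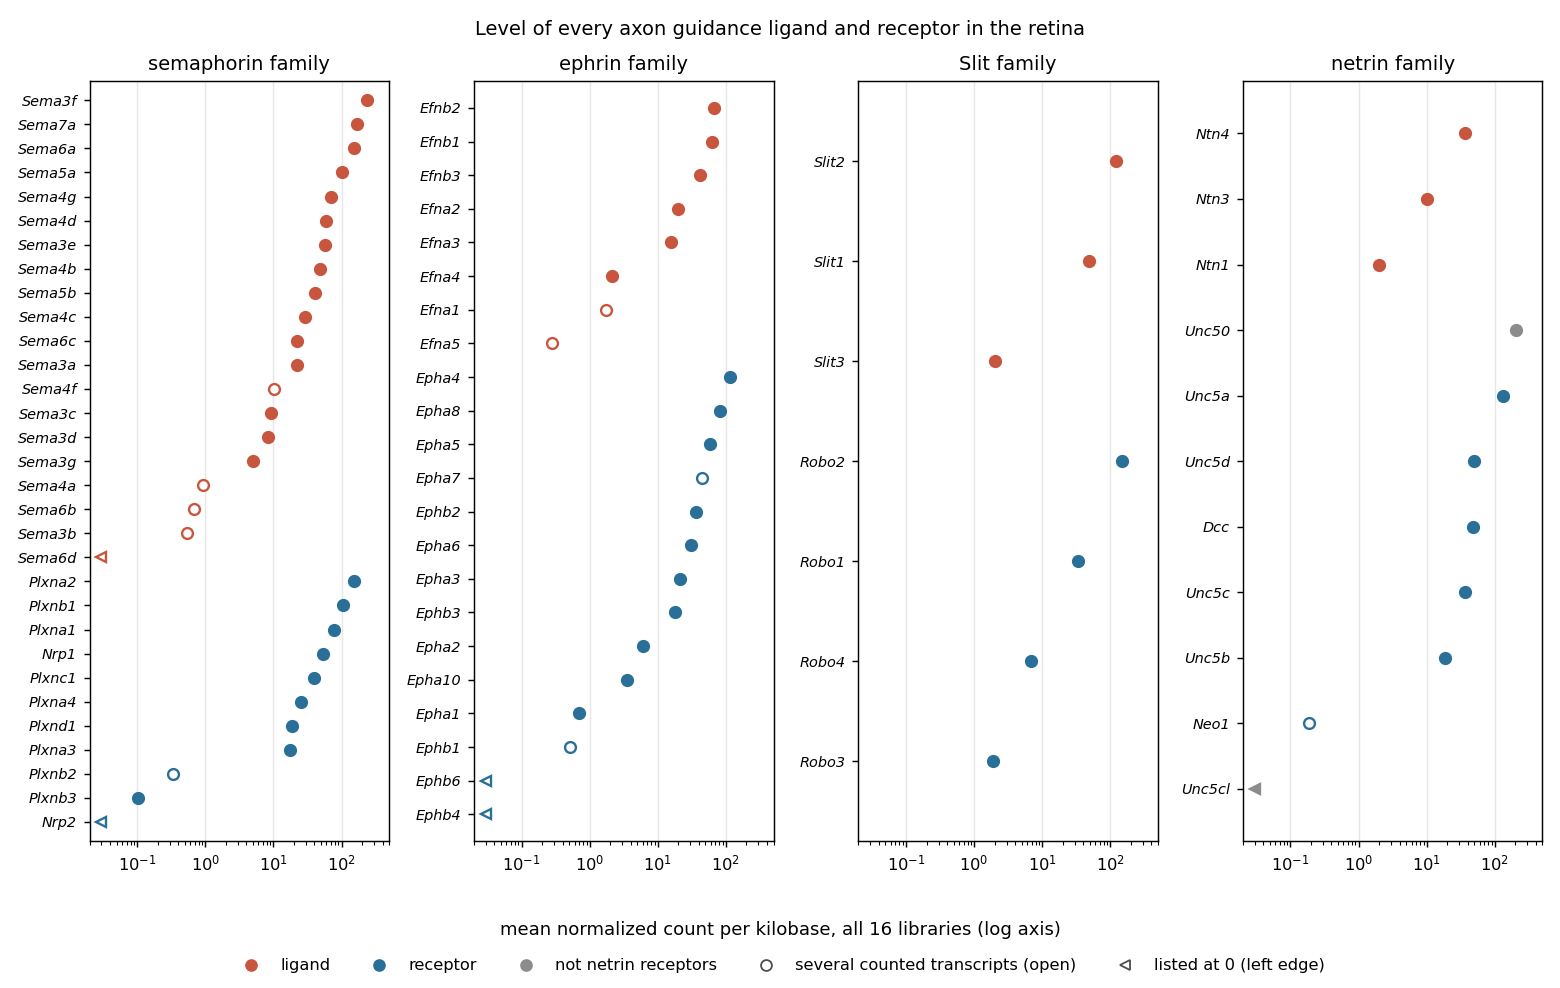
Mean normalized count per kilobase (log axis) of every member by family, ligands in red and receptors in blue, ordered by level within a role; grey marks Unc50 and Unc5cl, open symbols genes with several counted transcripts, and triangles at the left edge genes listed at 0. With this length the highest ligand is Sema3f at 233 and the highest receptor among the named families' own receptors is Plxna2 at 152; nearly all values under 1 are open symbols, with Epha1 and Plxnb3 as the filled exceptions besides Unc5cl.

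In the Slit family 1 ligand and 1 receptor stood above their relatives. Slit2, a secreted repellent that channels ganglion cell axons, was at a mean normalized count of 1202, or 121 per kilobase. Slit1 was at 273, or 48.1 per kilobase, and Slit3 at 10.7, or 2.04 per kilobase. Slit2 was thus 2.51 times Slit1 (2.51 to 8.06) and 59.1 times Slit3 (39.1 to 113). Its receptor Robo2 was at 1255, or 146 per kilobase, and Robo1 at 255, or 33.7 per kilobase, a ratio of 4.33 (3.0 to 5.28). Robo4, an endothelial receptor, was at 33.3, or 6.73 per kilobase. Robo3, best known from commissural axons, was lowest at 9.32, or 1.86 per kilobase. All 7 genes of the family have 1 counted transcript. Robo2 was 1.21 times Slit2 (0.681 to 1.21), so with median length the ligand was the higher one. Per kilobase of the longest transcript, Robo2, Slit2 and Slit1 together held 87.6% of the family's summed level.

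Of the ephrin ligands, the Efnb class summed higher than the Efna class. Efnb ephrins cross the membrane, whereas Efna ephrins hang on a lipid anchor. Efnb2, which also marks arterial endothelium, was the highest ligand at a mean normalized count of 321, or 66.9 per kilobase. Efnb1 followed at 203, or 62.3 per kilobase, a ratio of 1.07 (1.07 to 1.62) between them, and Efnb3 at 131, or 41.3 per kilobase. The 3 Efnb genes summed to 170 per kilobase and the 5 Efna genes to 39.4. Of the Efna ligands, Efna2 reached 19.8 and Efna3 15.5 per kilobase, while Efna4 was at 2.10. With longest length every Efnb gene was above every Efna gene, but with median length Efna3 (49.3) was above Efnb3 (41.3). The lowest, Efna5 at 0.280 per kilobase, and Efna1 at 1.74 have 2 counted transcripts each. The Efna sum is thus made up with 2 of 5 genes whose level is not read as absence.

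Among the Eph receptors, the more numerous Epha class had the higher sum. The 9 Epha genes summed to 360 per kilobase and the 5 Ephb genes to 54.9, and 3 of those 5 have several counted transcripts. Among genes with 1 counted transcript the medians were close with longest length, at 26.0 per kilobase over 8 Epha genes and 27.2 over 2 Ephb genes. On the other 3 scales the Ephb median was the higher one. It was 84.5 against 62.7 with median length, 81.4 against 38.2 with coding length and 241 against 121 with no length. Epha4, which binds both ephrin classes, led with a mean normalized count of 720, or 114 per kilobase. Epha8 followed at 380, or 80.7 per kilobase, and Epha5, a receptor graded across the retina during map formation, at 431, or 58.9 per kilobase. Epha4 was 1.41 times Epha8 (1.41 to 2.58) and 1.93 times Epha5 (1.67 to 2.22). Epha8 was in the second place with longest length alone, and below both Epha5 and Ephb2 on the other 3 scales. Epha7 reached 44.7 per kilobase although it has 2 counted transcripts. Ephb2, a receptor for Efnb ligands in dorsoventral mapping, was at 397, or 36.5 per kilobase. Ephb3 was at 18 per kilobase and Ephb1, the receptor known for turning ventrotemporal axons away at the chiasm, at 0.516. Ephb1 has 2 counted transcripts, as have Ephb4 and Ephb6, which were listed at 0. Of the receptors with 1 counted transcript, Epha1 was lowest at 0.686 per kilobase.

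The semaphorin ligands were led by members of several classes. Sema3f, a secreted repellent that acts through Nrp2, was at a mean normalized count of 790, or 233 per kilobase. That was the highest of the 71 members with longest length, but not on the other scales, where Plxnb1 (median length), Unc50 (coding length) and Plxna2 (no length) were highest. With longest length Sema3f stood at the 92.3 percentile of the genes with a length by level per kilobase. Sema7a, anchored to the membrane by lipid, was at 552, or 167 per kilobase. The transmembrane Sema6a was at 1039, or 152 per kilobase, and Sema5a at 1097, or 101 per kilobase. Sema5a and its relative Sema5b (40.9 per kilobase) are known to confine retinal neurites to the inner layers. Their ratio was 2.48 (2.13 to 6.03). Within the secreted class 3, Sema3f was 4.0 times Sema3e (1.96 to 12.8) and 10.4 times Sema3a (5.85 to 19.1). Sema3e was at 58.2, Sema3a at 22.4, Sema3c at 9.18, Sema3d at 8.28 and Sema3g at 5.10 per kilobase. Within class 6, Sema6a was 6.75 times Sema6c (6.75 to 9.09). The lowest semaphorins all have several counted transcripts. They were Sema4a at 0.938 and Sema6b at 0.685 per kilobase, Sema3b at 0.541 and Sema6d at 0.

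Class sums show the same spread. With longest length class 3 summed to 336 per kilobase over its members, class 4 to 219, class 6 to 175, class 7 (Sema7a alone) to 167 and class 5 to 142. The order depends on the length used. With no division by length class 3 summed to 1450, class 5 to 1287, class 6 to 1156, class 4 to 937 and class 7 to 552. The lead of Sema3f among the ligands turned with coding length, with Sema5a at 340 and Sema3f at 336, and with no division by length.

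Among the semaphorin receptors the 4 class A plexins had the highest class sum, 274 per kilobase, although Plxna3 and Plxna4 were below Plxnb1, Nrp1 and Plxnc1. Plxna2, a receptor for class 6 semaphorins and, with neuropilins, for class 3, was at a mean normalized count of 1681, or 152 per kilobase. It stood at the 97.4 percentile of all genes by mean normalized count. Plxnb1, a receptor for Sema4d, was at 901, or 104 per kilobase, and Plxna1 at 705, or 78.0 per kilobase. Plxna2 was 1.95 times Plxna1 (0.530 to 2.39), 5.93 times Plxna4 (5.08 to 11.4) and 8.61 times Plxna3 (3.41 to 13.7). Divided by median transcript length, however, Plxnb1 (1233) and Plxna1 (998) were above Plxna2 (529), so the lead of Plxna2 depends on the length used. The co-receptor Nrp1 was at 194, or 53.4 per kilobase. Nrp2, through which Sema3f acts, was listed at 0 with 6 counted transcripts. Plxnb2 was at 2.19, or 0.337 per kilobase, with 2 counted transcripts. Plxnb3, with 1 counted transcript, was at 0.643, or 0.103 per kilobase.

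Ligands and the receptors they are known to bind can be set side by side. Plxna2 was 1.00 times Sema6a (0.895 to 1.68). Sema7a was 4.22 times its receptor Plxnc1 (0.704 to 4.52), which was at 39.6 per kilobase. Sema3e was 3.08 times Plxnd1 (0.318 to 7.6), a receptor also known from blood vessels, at 18.9 per kilobase. Plxnb1 was 1.74 times its ligand Sema4d (1.37 to 3.36), which was at 59.7 per kilobase. With median length the receptor was higher in all 4 of these pairs, so the order within the first 3 depends on the length used, while Plxnb1 was above Sema4d on each scale.

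In the netrin family the receptors summed to 487 per kilobase, or 283 without Unc50 and Unc5cl, and the ligands to 48.5. Not every receptor was above every ligand, since Ntn4 was above Unc5b and Neo1. Ntn4, a laminin-like netrin of basement membranes, led the ligands with a mean normalized count of 133, or 36.5 per kilobase. Ntn3 was at 50.7, or 10.1 per kilobase. Ntn1, the cue known for guiding ganglion cell axons out at the optic nerve head, was lowest at 11.5, or 1.96 per kilobase. Ntn4 was 3.63 times Ntn3 (2.42 to 3.63) and 18.6 times Ntn1 (11.1 to 31.3), and all 3 have 1 counted transcript. Of the receptors, Unc5a was at 526, or 132 per kilobase, Unc5d at 451, or 48.9 per kilobase, and Dcc, the attractive netrin receptor, at 488, or 47.2 per kilobase. Unc5c was at 36.5 and Unc5b at 18.3 per kilobase. Unc5a was thus 2.69 times Unc5d (1.17 to 4.01), 2.79 times Dcc (1.08 to 5.84), 3.61 times Unc5c (1.5 to 6.24) and 7.19 times Unc5b (4.89 to 31.1). It was above these receptors on each scale, by little over Unc5d and Dcc with no division by length. Neo1 was at 1.40, or 0.190 per kilobase, with 2 counted transcripts. Unc50 was at 289, or 204 per kilobase of a transcript of 1414 bases. It was above Unc5a with longest and coding length and below it with median length (353 against 586) and no length. Unc5cl was listed at 0.

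The 4 families differed in size and in how the level was divided between ligands and receptors. Per kilobase, the semaphorin family summed to 1530, which was 50.2% of all members, the ephrin family to 625 (20.5%), the netrin family to 536 (17.6%) and the Slit family to 359 (11.8%). Without Unc50 and Unc5cl the netrin share was 11.6% and the Slit share 12.6%, so with longest length the order of these 2 families turned. With median and coding length the netrin family stayed above the Slit family without these 2 genes. Receptors held 32.0% of the summed level in the semaphorin family, 66.4% in the ephrin family, 52.5% in the Slit family and 91.0% in the netrin family. The netrin value was 85.4% without Unc50 and Unc5cl. With median in place of longest transcript length the semaphorin receptor share was 54.8% and the Slit share 44.8%, each on the other side of an even division. Without Robo2 the Slit share was 19.9%. In the ephrin and netrin families receptors held more of the level than ligands under every alternative computed. These 2 families also have more receptor than ligand genes here, 14 to 8 and 8 to 3. In the netrin family, leaving out the highest member took out Unc50 and not a netrin receptor.

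**Figure D4:**
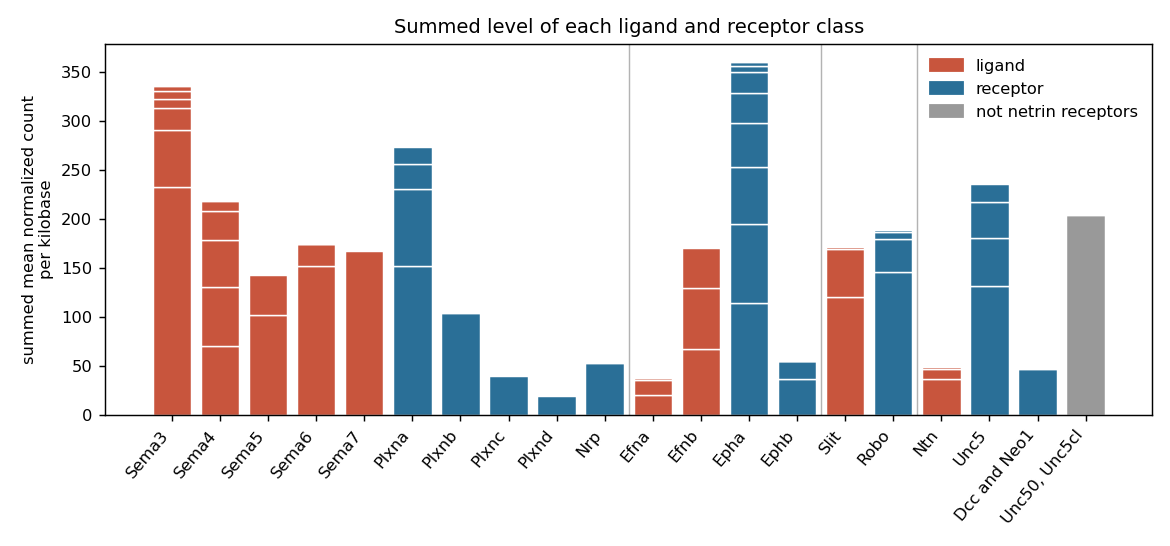
Summed mean normalized count per kilobase of each gene class, ligand classes in red and receptor classes in blue, by family; white lines part the genes of a class, and grey marks Unc50 and Unc5cl. With longest length the Epha receptors (360), class 3 semaphorins (336) and class A plexins (274) have the highest sums, and class D plexin (18.9) the lowest. The order depends on the length used. Class A plexins were above Epha receptors with median length (1728 against 662) and with no length (2840 against 2117).

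The level was spread over more genes in some families than in others. The highest member held 15.2% of the family's sum in the semaphorin family (Sema3f) and 18.2% in the ephrin family (Epha4). It held 38.1% in the netrin family (Unc50), or 39.8% (Unc5a) without Unc50 and Unc5cl, and 40.7% in the Slit family (Robo2). The highest 3 members held 36.1% of the semaphorin, 41.8% of the ephrin, 71.9% of the netrin (with Unc50) and 87.6% of the Slit sum. These families hold 31, 22, 11 and 7 genes, and at equal levels each gene of a smaller family holds a larger share.

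Several members lie side by side in the genome. Pairs were formed on GRCm38.p6 from members on the same chromosome with no other member between them. Of these, 9 pairs have fewer than 5 coding genes between them, and all 9 pairs are of the same family. With no coding gene between them lie Robo1 and Robo2, Robo4 and Robo3, Sema3d and Sema3a, Efna1 and Efna3, and Efna3 and Efna4. Their levels were not alike within every pair. Sema3b and Sema3f, with 3 coding genes between them on chromosome 9, were at 0.541 and 233 per kilobase, and Sema3b has 2 counted transcripts. Ephb2 and Epha8, on chromosome 4, were at 36.5 and 80.7 per kilobase. Epha6 and Epha3, on chromosome 16, were at 30.8 and 21.3 per kilobase.

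Genes that carry the signal inside the cell mostly reached the same minimum. Of 45 effectors, 39 (86.7%) reached a mean normalized count of 10, against 47.8% of all genes. These were 29 of the 30 with 1 counted transcript (96.7%, against 51.7% of all such genes) and 10 of the 15 with several (66.7%, against 24.6%). Effectors with several counted transcripts thus reached it more often than the members with several (14.3%). Dpysl2, a collapsin response mediator of semaphorin signalling, was highest by mean normalized count, at 5858. Per kilobase of the longest transcript the effector Cfl1 (1404) was above Dpysl2 (1296). Srgap3, of the Slit-Robo GTPase activators, was at 2715, and Trio, an exchange factor that acts with Dcc, at 1296. The exception with 1 counted transcript was the adaptor Grb7 at 8.40. Of 25 co-receptors, adhesion partners and other cues, 24 had a row and 18 of those reached 10, which were 15 of 17 with 1 counted transcript and 3 of 7 with several. The adhesion molecule Dscaml1 was highest at 2305, and Rgma, a ligand of Neo1, was at 183.

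The tissue label was checked on markers. The rod genes Gnat1 (154477) and Sag (29757) were far above the median of the table, and 9 of 10 ganglion cell markers reached 10. Of 5 markers each, 4 of the pigment epithelium (up to 540) and 4 of the lens (up to 898) reached 10, as did 2 of 3 of the cornea (up to 11.9) and none of 3 of skeletal muscle. The part of such tissue in the members' levels was not tested.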

How the data were processed

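Retinal RNA of 8 Spaceflight and 8 Ground control mice was sequenced. Per the study's methods, the authors trimmed reads with Trimmomatic, used TopHat2 for alignment to a mouse assembly older than GRCm38, counted RefSeq transcripts with HTSeq, and normalized with DESeq2 (1.22.2, in R 3.5.1). The value used is the mean normalized count the authors deposited, a signal averaged over all 16 libraries. The deposited table's other columns hold the authors' own comparison of the groups (fold changes, their errors and p-values) and were not used. The 32 columns of counts in 2 tables carry codes that the labels do not pair with a sample and were not used either, so the planned count test of Spaceflight against Ground control was not run. From the count table only the symbols and accessions were used. They gave the number of counted transcripts per gene and the match of each transcript to GENCODE M21. The shares of own bases, the overlaps and the printed stretches rest on that match. Lengths, exons and sequences came from GENCODE M21 (GRCm38), in which all 71 members and 80.4% of the table's genes were found. Gene order came from the RefSeq table of GRCm38.p6. Genes were named by rule: in each family and role the highest 3 and the lowest per kilobase, every member at 0 or at or above 1000, and every member of a small set. Others named were chosen after their values were seen. Members and lists were chosen with earlier results of these data known. Scripts (Python 3.11.15, pandas 2.3.3, numpy 2.4.6) were tested on simulated data. Alternatives were median, coding or no length, minimums of 1, 30 and 100, and leaving out the highest member, genes with several counted transcripts, or Unc50 and Unc5cl, the last pair of alternatives, that without Unc50 and Unc5cl at each length, and ratios at each length being added after the data were seen.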

Additional observations from a re-analysis of the deposited data

How the results depend on the processing

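Values pool all mice, so no error between mice, depth or test is given. No paired analysis was possible because the columns of counts carry no replicate number or group and no test was run, and leaving out single replicates and the planned count-model alternatives were not run for the same reason. The number of members at or above the minimum was 54, against 65 at a minimum of 1, 49 at 30, 41 at 100, and 52 among members with 1 counted transcript. The receptor shares of the semaphorin, ephrin, Slit and netrin families were 54.8%, 71.7%, 44.8% and 94.0% with median transcript length, 28.1%, 52.7%, 51.5% and 90.4% with coding length, and 44.7%, 77.8%, 51.1% and 91.9% with no division by length. Without the most abundant member of each family, which is Unc50 in the netrin family, they were 37.8%, 59.0%, 19.9% and 85.4%. With members of 1 counted transcript only, the semaphorin, ephrin and netrin shares were 32.3%, 64.0% and 90.9%. Without Unc50 and Unc5cl the netrin receptor share was 85.4%, or 92.0%, 85.5% and 90.8% with median, coding and no length, and the netrin family share on these lengths was 10.4%, 12.5% and 11.6%. The family shares, in the same order, were 65.5%, 11.3%, 9.78% and 13.5% with median length, 45.4%, 26.3%, 10.6% and 17.7% with coding length, 52.6%, 18%, 16.4% and 13% with no length, 50.7%, 19.3%, 12% and 17.9% with members of 1 counted transcript, and 53.8%, 22.0%, 12.6% and 11.6% without Unc50 and Unc5cl. The semaphorin family had the highest share under each of these. The median per kilobase was 22.5, against 51.2 with median length, 52.4 with coding length and 36.5 with members of 1 counted transcript. Of the 10 members highest per kilobase, 6 were also among the highest 10 with median length, 8 with coding length and 8 with no length. The median length counts short and partial annotated transcripts, and beyond that the cause of these moves was not tested.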

Other observations

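Among the 30 pathway and marker genes outside the 4 families that have several counted transcripts, 16 reached a mean normalized count of 10 and 14 did not. Of all genes with several counted transcripts 24.6% reached it. Trpm1 of bipolar cells was at 2866 with 2 counted transcripts and the adhesion molecule Ncam1 at 970 with 3. Some of those under 10 are genes that retina is known to express. Rlbp1, a retinoid-binding protein of Müller glia, had a mean normalized count of 1.39 with 2 counted transcripts, while the Müller genes Glul and Dkk3 were at 17455 and 5825. Rbpms, a marker of ganglion cells, was at 5.53 with 3, while the ganglion cell genes Nefl and Thy1 were at 2999 and 1730. The endothelial gene Pecam1 was at 0.446 with 2, while Cldn5, Cdh5 and Kdr, with 1 each, were at 51.1, 99.5 and 1359. Of the pathway lists, the vascular growth factor Vegfa was listed at 0 with 6 counted transcripts, the actin regulator Enah was at 1.39 with 4, the GTPase activator Chn1 at 1.09 with 5, the oxidoreductase Mical1 at 0 with 2, and the Wnt co-receptor Ryk at 0.134 with 2. Reads per transcript, and whether they were left unassigned, were not analysed here.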
